A study of Mus musculus with 11 samples.

Results

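The urea cycle was followed through 7 genes in RNA of isolated mouse hepatocytes: Cps1, Otc, Ass1, Asl and Arg1, which encode the enzymes of the cycle itself, Nags, which makes the activator of the first step, and Slc25a15, the mitochondrial ornithine carrier. They were chosen by name as the genes of this pathway and looked up by Ensembl identifier among the 54232 genes of the deposited count tables. All 7 were among the 13303 genes kept by the filter on low counts. The 11 libraries came from adult male C57BL/6 mice that all carried floxed Xbp1 alleles. Xbp1LKO mice also carried Cre under the albumin promoter, so the deletion was directed to hepatocytes, and Xbp1fl/fl mice served as controls. Mice of each genotype received standard chow, or for up to 6 weeks the HFS (high fat sugar) diet, a Western diet with fructose and glucose added to the drinking water, and were fasted before they were killed. The groups were Xbp1fl/fl on chow (3 libraries, 1 mouse each), Xbp1LKO on chow (2 libraries, 1 mouse each), Xbp1fl/fl on HFS (3 libraries, pools of 2 mice) and Xbp1LKO on HFS (3 libraries, pools of 2 mice). A pool averages over animals, so the spread between HFS libraries and that between chow libraries do not measure the same thing.

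XBP1 is the transcription factor made from the mRNA that IRE1 splices in the unfolded protein response. The urea cycle turns ammonia, which is toxic, into urea for excretion, and the hepatocyte is the one cell type that runs it in full. Carbamoyl phosphate and citrulline are formed inside the mitochondrion, the remaining steps take place in the cytosol, and ornithine is carried back in for the next turn. The enzymes are most abundant in periportal hepatocytes, where blood enters the lobule, whereas a narrow ring of pericentral hepatocytes captures the ammonia that escapes by making glutamine.

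Promoter sequences are shown for the members that have a RefSeq window (GRCm38.p6) because they include 2 enzymes of the cycle, Otc and Ass1, beside Nags and Slc25a15. Windows were found for 4 of the 7 members; Cps1, Asl and Arg1 had none. Each run gives the bases before the transcription start, 5′ to 3′ on the gene's strand, and stops at the RefSeq start or, for Ass1, before it, where the GENCODE M21 gene begins. The searched letters were the C/EBP core TTNNGNAA, the UPR element core TGACGTGG and CCACG, which also ends the ER stress response elements ERSE and ERSE-II, sites known for XBP1. The others were the box CCAAT, the box TATAAA, the cyclic AMP response element TGACGTCA with its shorter form TGACG, the amino acid response core TGATGNAA and the short glucocorticoid receptor site TGTTCT. Both strands were read, TGACG lies within both TGACGTCA and TGACGTGG, and the reverse of CCACG within TGACGTGG. Capitals mark matches.
Otc, chrX:10252055-10252304, plus strand: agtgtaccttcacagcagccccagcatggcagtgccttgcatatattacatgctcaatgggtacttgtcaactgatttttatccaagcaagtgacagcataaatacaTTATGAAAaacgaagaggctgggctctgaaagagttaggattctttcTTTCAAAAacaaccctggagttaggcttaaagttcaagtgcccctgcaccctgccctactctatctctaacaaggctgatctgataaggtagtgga
Ass1, chr2:31470020-31470206, plus strand: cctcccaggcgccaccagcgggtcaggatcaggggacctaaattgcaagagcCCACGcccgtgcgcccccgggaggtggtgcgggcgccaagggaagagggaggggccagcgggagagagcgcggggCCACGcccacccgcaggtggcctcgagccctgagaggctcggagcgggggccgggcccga
Nags, chr11:102145263-102145512, plus strand: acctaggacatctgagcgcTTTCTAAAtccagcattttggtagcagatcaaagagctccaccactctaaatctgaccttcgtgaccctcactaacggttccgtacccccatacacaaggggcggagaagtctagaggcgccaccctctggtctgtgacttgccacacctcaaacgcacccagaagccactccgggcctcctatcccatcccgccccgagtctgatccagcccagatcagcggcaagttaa
Slc25a15, chr8:22398622-22398871, minus strand: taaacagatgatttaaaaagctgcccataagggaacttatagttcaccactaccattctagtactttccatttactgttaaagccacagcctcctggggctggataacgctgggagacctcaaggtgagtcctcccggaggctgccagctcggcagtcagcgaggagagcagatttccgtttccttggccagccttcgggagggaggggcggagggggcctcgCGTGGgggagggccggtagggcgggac
The capitals in Otc and Nags are C/EBP core matches, and those in Ass1 and Slc25a15 are CCACG or its reverse. Ass1 also holds CCACG at -37 to -33 from the RefSeq start, past the end of its printed run. Among the 250 bases before the start of all 32851 windows, 36.8% hold the C/EBP core and 28.3% hold CCACG, so neither is rare. ERSE, ERSE-II and the UPR element core were in 0 of these 4 windows, and in 0.113%, 0.0304% and 0.563% of all windows. The other motifs were also in 0 of 4, among them CCAAT, which 33.8% of all windows hold. The C/EBP core and CCACG were each in 1 enzyme of the cycle (Otc or Ass1) and in 1 of the other members (Nags or Slc25a15). A match describes the letters of the window and does not show a bound site.

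Depth was similar throughout, at 19191032 to 23888401 counts a library, and a member had between 1306 and 171711 counts in a library. Levels are given as CPM, the counts of a gene per 1000000 counts of its library after scaling with edgeR's TMM factors. The Xbp1 gene, whose floxed part a count per gene does not separate, was at 95.7 to 135 CPM in the 5 Xbp1LKO libraries and at 194 to 301 CPM in the 6 Xbp1fl/fl libraries, with no overlap. The 12 hepatocyte markers summed to 55216 CPM or more in every library, in accord with the labelled cell type. The summed level of 12 macrophage markers was 21.6 to 105 CPM and that of 10 sinusoidal endothelial markers was 31.2 to 166 CPM. Of 6 cholangiocyte markers, Krt19, Krt7 and Cftr had at most 4 counts in any library and Epcam at most 12. Sox9 was at 1.30 to 6.23 CPM and Spp1 at 1.38 to 14.1 CPM. Of the 2 tested, 1 was called lower in Xbp1LKO hepatocytes on chow, as were 3.02% of all genes.

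Read per kilobase of the longest coding transcript, the members spanned a wide range. In Xbp1fl/fl hepatocytes on chow, Arg1 (1553 ± 102 CPM per kb, SD, n = 3) and Cps1 (1340 ± 198) led with overlapping ranges. Ass1 came next at 844 ± 268, and then Asl at 393 ± 77.1, Otc at 246 ± 18.7, Slc25a15 at 139 ± 3.55 and Nags at 40.0 ± 5.48 CPM per kb, with no overlap between neighbours from Cps1 down. In Xbp1LKO hepatocytes on chow, Cps1, Arg1 and Ass1 overlapped at 847, 590 and 496 CPM per kb, and Otc (144) stood level with Slc25a15 (143), which it had exceeded 1.77-fold in the controls. In Xbp1LKO hepatocytes on HFS the order from Cps1 (578) to Slc25a15 (117) held no pair of neighbours without overlap, and only Nags (40.2) stood clear below. The distance between the abundant enzymes and the scarce members was thus smaller in the Xbp1LKO libraries.

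The comparison of Xbp1LKO with Xbp1fl/fl hepatocytes on each diet asks what the loss of XBP1 did to the pathway. The levels of the 5 enzymes of the cycle were lower in Xbp1LKO hepatocytes on both diets, while Nags and Slc25a15 stayed near the control level. Arg1 fell on chow and on HFS. The other 4 enzymes had log2 fold changes from -0.56 to -1.34 that did not pass the threshold on either diet alone. In edgeR (quasi-likelihood test, p adjusted by Benjamini-Hochberg), 1 of 7 members was called on chow, where 4.75% of all genes were called (3.02% lower), and 1 of 7 on HFS, where 4.08% were called (2.16% lower). In this and every other comparison of bulk RNA, fewer cells of a type and less RNA per cell cannot be told apart.

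The mitochondrial steps come first; gene positions are those of GENCODE M21 on GRCm38. Cps1 (carbamoyl phosphate synthetase, the entry step of the cycle; chr1:67123026-67231259) had 7339, 8589 and 6399 CPM in Xbp1fl/fl chow libraries 1 to 3, and 6562 and 2848 CPM in Xbp1LKO chow libraries 1 and 2. On HFS it had 8153, 7781 and 8410 CPM in Xbp1fl/fl libraries and 4959, 3111 and 1555 CPM in Xbp1LKO libraries. On chow the groups overlapped, because Xbp1LKO library 1 lay above the lowest control, and on HFS every Xbp1LKO library was below every control. The log2 fold change was -0.66 (SE 0.43, edgeR adjusted p = 0.44) on chow and -1.34 (SE 0.38, edgeR adjusted p = 0.077) on HFS. The chow value was -1.39 without Xbp1LKO library 1 and -0.18 without library 2 (edgeR adjusted p = 0.14 and 0.95). Without Xbp1LKO HFS library 1, the highest of its group, the HFS value was -1.79 (edgeR adjusted p = 0.029), and without either of the Xbp1LKO chow libraries it was also called (0.044 and 0.045).

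Otc (ornithine transcarbamylase, which joins carbamoyl phosphate to ornithine; chrX:10252305-10321024) had 673, 753 and 781 CPM in Xbp1fl/fl chow libraries and 565 and 297 CPM in Xbp1LKO chow libraries. Its HFS levels were 664, 625 and 720 CPM in Xbp1fl/fl and 545, 512 and 304 CPM in Xbp1LKO libraries. The groups did not overlap on either diet, and Xbp1LKO chow library 2 and Xbp1LKO HFS library 3 were the low ones. The log2 fold change was -0.77 (SE 0.28, edgeR adjusted p = 0.15) on chow and -0.56 (SE 0.25, edgeR adjusted p = 0.27) on HFS. Without Xbp1LKO chow library 1 the chow value was -1.31 (edgeR adjusted p = 0.032), and without library 2 it was -0.38 (edgeR adjusted p = 0.74).

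Of the cytosolic enzymes, Ass1 (argininosuccinate synthetase, which brings in the nitrogen of aspartate; chr2:31470207-31520672) had 1670, 1717 and 908 CPM in Xbp1fl/fl chow libraries and 1129 and 554 CPM in Xbp1LKO chow libraries. On HFS the levels were 1014, 1009 and 1264 CPM in Xbp1fl/fl and 830, 526 and 302 CPM in Xbp1LKO libraries. Xbp1fl/fl chow library 3 was low for a control and lay below Xbp1LKO chow library 1, so the chow groups overlapped and the HFS groups did not. The log2 fold change was -0.77 (SE 0.42, edgeR adjusted p = 0.36) on chow and -0.99 (SE 0.37, edgeR adjusted p = 0.19) on HFS. On chow it was -1.37 without Xbp1LKO library 1 and -0.34 without library 2 (edgeR adjusted p = 0.16 and 0.90).

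Asl (argininosuccinate lyase, which releases arginine and fumarate; chr5:130011258-130029247) had 1043, 1068 and 733 CPM in Xbp1fl/fl chow libraries and 580 and 283 CPM in Xbp1LKO chow libraries. On HFS it had 623, 598 and 839 CPM in Xbp1fl/fl and 497, 279 and 253 CPM in Xbp1LKO libraries. The groups did not overlap on either diet. The log2 fold change was -1.14 (SE 0.36, edgeR adjusted p = 0.099) on chow and -1.0 (SE 0.31, edgeR adjusted p = 0.10) on HFS. It was called on chow without Xbp1LKO library 1 (edgeR adjusted p = 0.035) and on HFS without Xbp1LKO library 1 (edgeR adjusted p = 0.034), in each case the highest library of its group. Without Xbp1LKO chow library 2 the chow value was -0.71 (edgeR adjusted p = 0.58).

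Arg1 (arginase, which splits arginine into urea and ornithine; chr10:24915221-24927484) had 2468, 2213 and 2203 CPM in Xbp1fl/fl chow libraries and 1139 and 602 CPM in Xbp1LKO chow libraries. On HFS it had 1435, 1906 and 1734 CPM in Xbp1fl/fl and 1042, 608 and 466 CPM in Xbp1LKO libraries. Every Xbp1LKO library was below every control on both diets. Arg1 fell 2.64-fold on chow (log2 fold change -1.40, SE 0.34, edgeR adjusted p = 0.040) and 2.40-fold on HFS (-1.26, SE 0.30, edgeR adjusted p = 0.038). Both adjusted p-values lie near the threshold. The chow call was lost in 8 of 11 fits that each left out 1 library (edgeR adjusted p from 0.051 to 0.34 in those 8), namely any of the 6 Xbp1fl/fl libraries, Xbp1LKO chow library 2 or Xbp1LKO HFS library 2. The value was -1.01 without Xbp1LKO chow library 2 (edgeR adjusted p = 0.34) and -1.93 without Xbp1LKO chow library 1 (0.021). The HFS call was lost in 6 of 11 such fits (edgeR adjusted p from 0.053 to 0.16), namely without Xbp1fl/fl chow library 2, any Xbp1fl/fl HFS library, or Xbp1LKO HFS library 2 or 3.

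Nags (N-acetylglutamate synthase, which makes the activator that Cps1 needs; chr11:102145513-102149477) had 92.2, 81.1 and 70.0 CPM in Xbp1fl/fl chow libraries and 88.8 and 85.0 CPM in Xbp1LKO chow libraries. On HFS it had 62.2, 71.0 and 73.1 CPM in Xbp1fl/fl and 78.9, 78.3 and 87.1 CPM in Xbp1LKO libraries. The chow groups overlapped, and on HFS all Xbp1LKO libraries were above the controls, as in 13.6% of genes. The log2 fold change was 0.10 (95% interval -0.19 to 0.39, edgeR adjusted p = 0.74) on chow and 0.24 (95% interval -0.01 to 0.50, edgeR adjusted p = 0.32) on HFS. Scaling by library totals put the median log2 fold change of all genes at 0.33 on chow and 0.27 on HFS. When library totals replaced the TMM factors, Nags was called higher at 0.43 and 0.51. An antisense gene, Gm11586, overlaps 443 exonic bases of Nags and had 1 to 6 counts a library.

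Slc25a15 (the carrier that exchanges ornithine and citrulline across the inner mitochondrial membrane; chr8:22375551-22398597) had 490, 467 and 472 CPM in Xbp1fl/fl chow libraries and 524 and 459 CPM in Xbp1LKO chow libraries. On HFS it had 427, 407 and 461 CPM in Xbp1fl/fl and 484, 370 and 348 CPM in Xbp1LKO libraries. The groups overlapped on both diets, and Xbp1LKO library 1 was the highest of its group on each. The log2 fold change was 0.05 (95% interval -0.30 to 0.39, edgeR adjusted p = 0.91) on chow and -0.11 (95% interval -0.41 to 0.20, edgeR adjusted p = 0.77) on HFS, where the sign turned to 0.15 with library totals. These intervals do not reach the change of Arg1 on either diet.

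**Figure D1:**
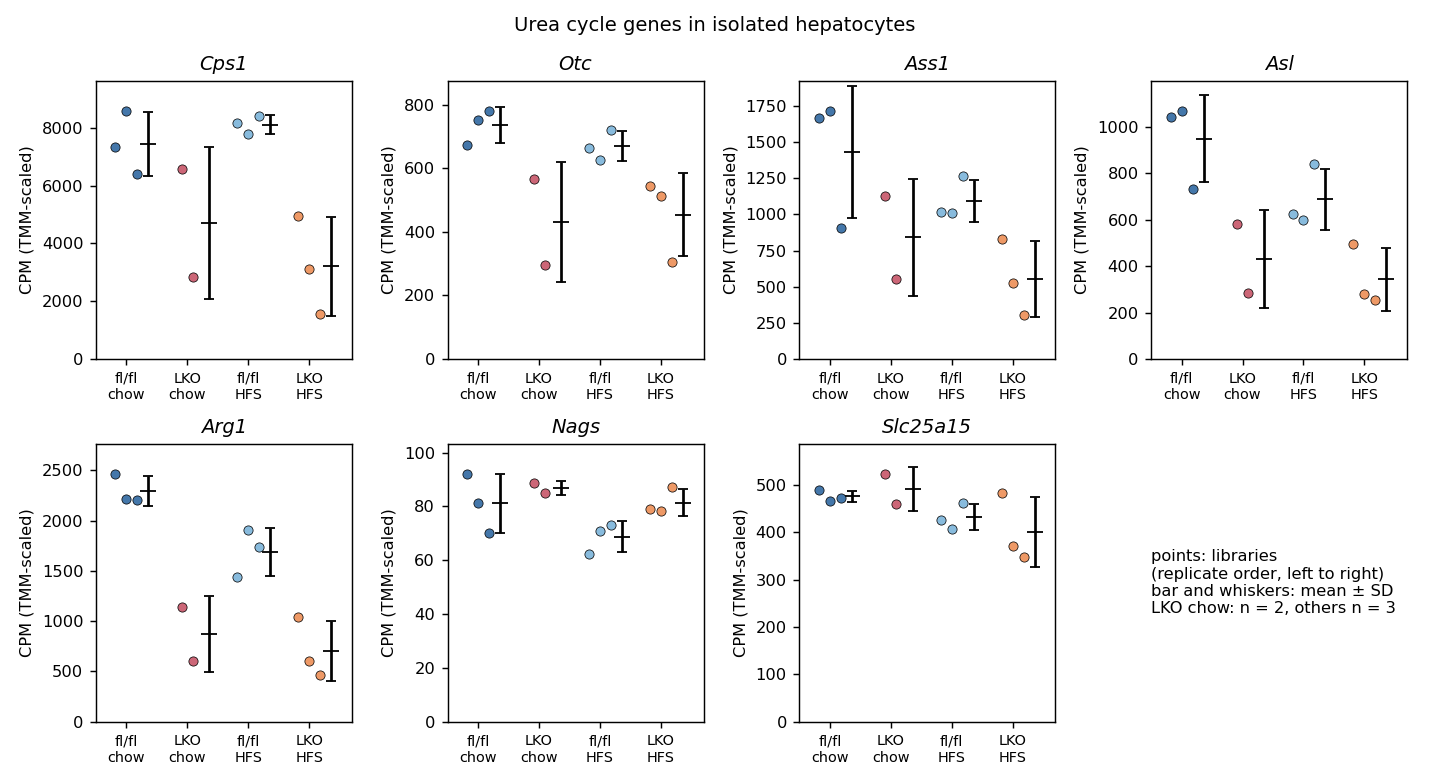
TMM-scaled CPM (linear axes from 0) of the 7 genes in each of the 11 libraries, by genotype and diet; black bars give the mean ± SD of the group (n = 2 for Xbp1LKO chow, n = 3 otherwise). The Xbp1LKO points of Otc, Asl and Arg1 lie below those of the controls on both diets, from 466 to 1139 CPM for Arg1 against 1435 to 2468 CPM, whereas the points of Nags and Slc25a15 intermingle or lie close together.

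Counted over the groups of each diet, 3 members had all Xbp1LKO libraries below the controls on chow, where 15.9% of all genes did, and 5 on HFS, where 12.5% did. Over all 11 libraries, the 5 Xbp1LKO libraries were below the 6 Xbp1fl/fl libraries for Otc, Asl and Arg1, as for 4.34% of all genes. For Cps1 and Ass1, 4 of the 5 Xbp1LKO libraries were below the lowest control. The median log2 fold change of the 7 genes was -0.77 on chow and -0.99 on HFS, against 0.00 and 0.01 over all genes tested. At an unadjusted p under 0.05, 3 members passed on chow (19.3% of all genes) and 5 on HFS (17.5%).

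A contrast averaging the genotype effect over both diets, chosen after the values had been seen, used all 11 libraries at once. It called 4 of the 7 members, all lower, against 11.9% of all genes (6.64% lower). Arg1 fell 2.51-fold (log2 fold change -1.33, SE 0.23, edgeR adjusted p = 0.0031), Asl 2.10-fold (-1.07, SE 0.24, edgeR adjusted p = 0.013), Cps1 2.00-fold (-1.0, SE 0.29, edgeR adjusted p = 0.044) and Otc 1.59-fold (-0.67, SE 0.19, edgeR adjusted p = 0.040). Ass1 was at -0.88 (95% interval -1.49 to -0.26, edgeR adjusted p = 0.068), and was called without Xbp1fl/fl chow library 3, Xbp1LKO chow library 1 or Xbp1LKO HFS library 1 (edgeR adjusted p from 0.024 to 0.038). Nags was at 0.17 (95% interval -0.02 to 0.36) and Slc25a15 at -0.03 (95% interval -0.26 to 0.20); with library totals these became 0.47 and 0.26, both called higher. Arg1 stayed called in 11 of 11 fits that left out 1 library, and Asl in 10 of 11, the exception being Xbp1LKO chow library 2 (-0.86, edgeR adjusted p = 0.061). Cps1 and Otc each kept the call in 2 of 11, without Xbp1LKO chow library 1 or Xbp1LKO HFS library 1, the highest library of either group, and were otherwise at edgeR adjusted p from 0.052 to 0.18 and from 0.054 to 0.17.

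**Figure D2:**
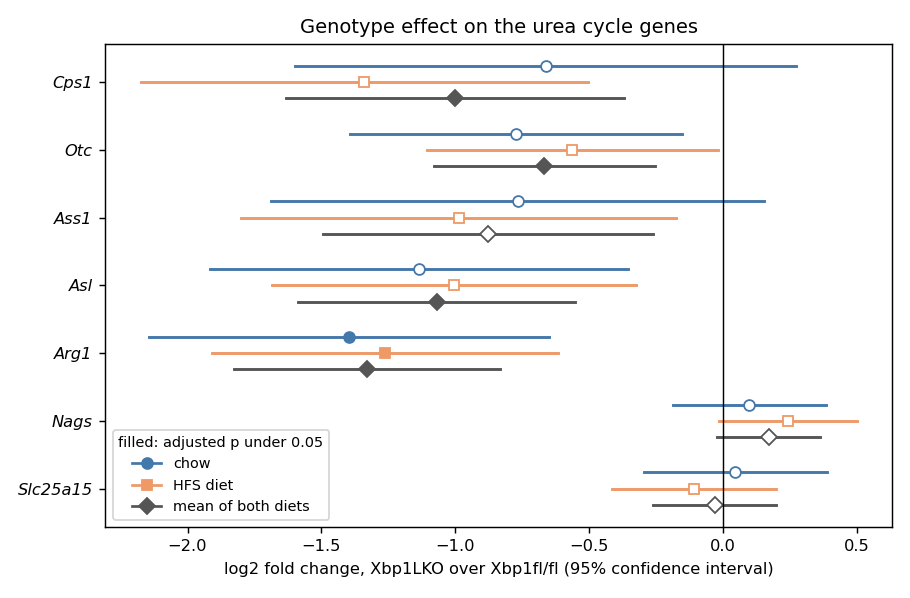
Log2 fold change of Xbp1LKO over Xbp1fl/fl hepatocytes with its 95% confidence interval for each gene, on chow (circles), on HFS (squares) and averaged over the diets (diamonds); filled symbols passed an edgeR adjusted p of 0.05. Arg1 is filled in all 3 (-1.40, -1.26 and -1.33), Asl, Cps1 and Otc only in the average, and the intervals of Nags and Slc25a15 span 0.

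For each of the 5 enzymes the ratio of the highest to the lowest library was larger among Xbp1LKO libraries than among controls. The highest Cps1 level was 4.22 times the lowest among the 5 Xbp1LKO libraries and 1.34 times among the 6 Xbp1fl/fl libraries. The same ratio was 3.74 against 1.89 for Ass1, 2.45 against 1.72 for Arg1, 2.30 against 1.79 for Asl and 1.91 against 1.25 for Otc. It was 1.1 against 1.5 for Nags, which was the steadier gene in Xbp1LKO libraries, and 1.51 against 1.21 for Slc25a15. These libraries span both diets, and the spread itself was not tested.

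Among the Xbp1LKO libraries of a diet, the order was the same for each enzyme. Relative to the mean of the 6 Xbp1fl/fl libraries, Xbp1LKO chow library 1 lay between -0.16 (Ass1) and -0.81 (Arg1) on the log2 scale, and Xbp1LKO chow library 2 between -1.19 (Ass1) and -1.73 (Arg1). On HFS, Xbp1LKO library 3 lay between -1.21 (Otc) and -2.32 (Cps1), library 2 between -0.46 (Otc) and -1.71 (Arg1), and library 1 between -0.37 (Otc) and -0.94 (Arg1). Across the 11 libraries, which share 1 scaling each, Pearson's r of log2 CPM among the 10 pairs of the 5 enzymes was 0.83 to 0.96. After the group means were removed it was 0.73 to 0.93, so the enzymes moved together within groups as well. With Slc25a15 the within-group r was 0.69 to 0.86, and with Nags it was -0.25 to 0.29. Xbp1LKO HFS library 3 also had the highest summed macrophage markers (105 CPM, against 42.0 to 64.2 CPM in the other HFS libraries), and their part in its low values was not tested.

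**Figure D3:**
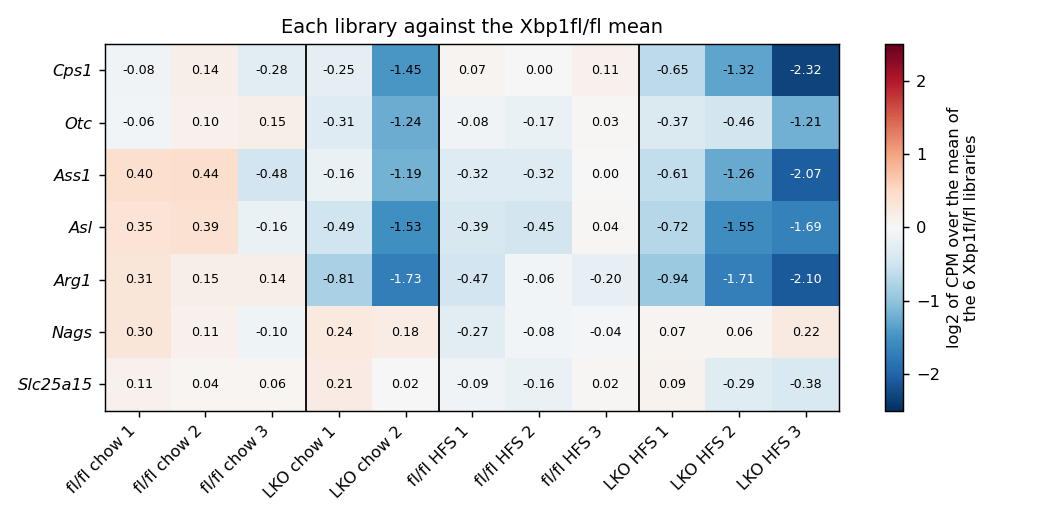
Log2 of each library's CPM over the mean of the 6 Xbp1fl/fl libraries (colour scale from -2.5 to 2.5, numbers in the cells), with genes in rows and libraries grouped by genotype and diet. The upper 5 rows darken together in Xbp1LKO chow library 2 and Xbp1LKO HFS libraries 2 and 3, down to -2.32 for Cps1, whereas Nags stays between -0.27 and 0.30.

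Ratios of counts within a library do not depend on the scaling. The ratio of Arg1 to Slc25a15 counts was 5.04, 4.74 and 4.67 in Xbp1fl/fl chow and 3.36, 4.69 and 3.76 in Xbp1fl/fl HFS libraries. It was 2.17 and 1.31 in Xbp1LKO chow and 2.15, 1.64 and 1.34 in Xbp1LKO HFS libraries, all below every control. Cps1 had 79.6 to 131 times the counts of Nags in Xbp1fl/fl libraries and 17.9 to 73.9 times in Xbp1LKO libraries, again with no overlap. The enzyme and its activator's synthase thus stood in a lower ratio in each Xbp1LKO library. The ratio of Ass1 to Asl counts overlapped between genotypes, at 1.24 to 1.69 in Xbp1fl/fl and 1.20 to 1.96 in Xbp1LKO libraries. That of Cps1 to Otc was 10.9, 11.4 and 8.19 in Xbp1fl/fl chow and 11.6 and 9.60 in Xbp1LKO chow libraries. On HFS it was 12.3, 12.4 and 11.7 in Xbp1fl/fl and 9.09, 6.08 and 5.12 in Xbp1LKO libraries, with no overlap.

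The 7 genes together took 1.22% ± 0.14 (SD, n = 3) of all counts in Xbp1fl/fl chow libraries and 0.881% ± 0.381 (SD, n = 2) in Xbp1LKO chow libraries. On HFS the share was 1.17% ± 0.05 (SD, n = 3) in Xbp1fl/fl and 0.624% ± 0.256 (SD, n = 3) in Xbp1LKO libraries. The chow groups overlapped, with Xbp1LKO library 1 at 1.15% above Xbp1fl/fl library 3 at 1.06%, and the HFS groups did not. Cps1 alone was 46.9% to 65.9% of the sum. Alb, the most abundant liver transcript, took 8.06% to 10.9% of counts in Xbp1fl/fl chow and 1.67% to 3.72% in Xbp1LKO chow libraries, so the denominator itself differed; leaving its counts out moved the chow shares to 1.34% and 0.908% and the HFS shares to 1.26% and 0.654%.

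The diet comparisons ask whether HFS feeding altered the pathway within a genotype; they use the same libraries as the genotype comparisons. The diet left no detectable mark on the 7 genes at this group size. In Xbp1fl/fl hepatocytes 0 of 7 members were called by edgeR (0.428% of all genes were), 0 at an unadjusted p under 0.05 (8.95% of all genes) and 0 by DESeq2. The log2 fold changes of HFS over chow ran from -0.46 (Asl, 95% interval -1.14 to 0.21) to 0.12 (Cps1, 95% interval -0.70 to 0.95). Arg1 was at -0.44 (95% interval -1.08 to 0.20), with every HFS library below every chow library, and Slc25a15 at -0.14 (95% interval -0.45 to 0.16), also without overlap; 7.34% of all genes separated in that direction. In Xbp1LKO hepatocytes 0 of 7 were called by edgeR (0.0601% of all genes were), 0 at an unadjusted p under 0.05 (12.7%) and 0 by DESeq2. The values ran from -0.61 (Ass1, 95% interval -1.50 to 0.28) to 0.07 (Otc, 95% interval -0.53 to 0.68), and the groups overlapped for all 7, where 14.4% of all genes had every HFS library below every chow library and 16.7% above. Several intervals were wide enough to hold changes of the size seen between genotypes. In Xbp1LKO hepatocytes those of Cps1, Ass1 and Asl (-1.08 to 0.41) held the gene's genotype value on HFS. In Xbp1fl/fl hepatocytes those of Ass1 and Asl held it on both diets, that of Cps1 on chow and that of Otc (-0.68 to 0.41) on HFS. The Arg1 intervals did not hold it in either genotype.

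The interaction, the genotype effect on HFS minus that on chow, asks whether the genotypes differed more on one diet. By edgeR 0 of 7 members were called, as was 0% of all genes; at an unadjusted p under 0.05 there were 0 members against 6.13% of all genes, and DESeq2 called 0 members. The largest was Cps1 at -0.68 (95% interval -1.90 to 0.55, edgeR adjusted p = 0.90), and it became 0.04 without Xbp1LKO chow library 1. The other 6 lay between -0.22 (Ass1) and 0.21 (Otc). The passing of Arg1 on both diets and the values of the other enzymes on 1 diet or the other do not therefore show a difference between the diets.

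Genes that feed the cycle, drain it or handle what it leaves were counted from a list of 52, of which 48 were tested. By edgeR, 6 were called higher and 1 lower in Xbp1LKO hepatocytes on chow (1.73% and 3.02% of all genes), and 5 higher and 0 lower on HFS (1.92% and 2.16%). At an unadjusted p under 0.05, 16 passed on chow (19.3% of all genes did) and 17 on HFS (17.5%). Averaged over the diets, 7 were called higher and 2 lower (5.25% and 6.64% of all genes). The median log2 fold change of the 48 was 0.01 on chow and -0.03 on HFS, and 23 to 25 were on each side of 0 on both diets. The genes called on a diet were Gls2, Oat, Glul, Rhbg and the amino acid transporters Slc1a2, Slc1a4 and Slc7a1.

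Of 11 genes of mitochondrial ammonia, bicarbonate and aspartate supply, 1 was called on chow (4.75% of all genes) and 0 on HFS (4.08%). It was Gls2, the liver glutaminase that frees ammonia next to Cps1 in periportal mitochondria. At an unadjusted p under 0.05, 2 of the 11 passed on chow (19.3% of all genes) and 4 on HFS (17.5%). DESeq2 called 2 of the 11 on chow and 3 on HFS, of 1115 and 987 genes in all. Gls2 had 581, 745 and 478 CPM in Xbp1fl/fl chow libraries and 220 and 72.0 CPM in Xbp1LKO chow libraries, and on HFS 298, 385 and 419 CPM against 204, 111 and 92.9 CPM. All Xbp1LKO libraries were below the controls on each diet. It fell 4.12-fold on chow (log2 fold change -2.04, SE 0.46, edgeR adjusted p = 0.029) and was at -1.43 on HFS (edgeR adjusted p = 0.065). The chow call was lost without Xbp1fl/fl chow library 1 or 2 or Xbp1LKO chow library 2 (edgeR adjusted p from 0.051 to 0.19). In the contrast averaged over the diets Gls2 fell too (-1.74, edgeR adjusted p = 0.0034), and Slc25a22, a mitochondrial glutamate carrier, rose (0.62, edgeR adjusted p = 0.028), a call lost in 6 of 11 fits without 1 library (from 0.053 to 0.15): Xbp1fl/fl chow 2 or 3, Xbp1LKO chow 2, Xbp1fl/fl HFS 2 or 3, or Xbp1LKO HFS 1.

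Of the 16 tested genes of ornithine, arginine and polyamine routes, 1 was called higher on each diet and 0 lower. Of all genes, 1.73% were called higher on chow and 1.92% on HFS. Oat, the ornithine aminotransferase that takes ornithine away from the cycle, had 1333, 968 and 1168 CPM in Xbp1fl/fl chow libraries and 3848 and 3696 CPM in Xbp1LKO chow libraries. On HFS it had 1153, 1080 and 1497 CPM against 2892, 4584 and 2939 CPM. Oat rose 3.26-fold on chow (log2 fold change 1.71, SE 0.23, edgeR adjusted p = 0.0042) and 2.79-fold on HFS (1.48, SE 0.21, edgeR adjusted p = 0.0040), with no overlap on either diet. This gene and Arg1 and Otc all act on ornithine, with Oat higher and the other two lower in each Xbp1LKO library than in every control.

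The next list held 10 tested genes of ammonia capture and transport, glutamine and cationic amino acid transport, and urea exit. Of these, 5 were called higher on chow (1.73% of all genes) and 4 on HFS (1.92%), and 0 lower. On each diet 6 of the 10 had a positive log2 fold change and 4 a negative one. The 4 were Slc38a2, Slc38a3, Slc38a4 and Slc7a2. Slc7a2, at a mean of 952 CPM against 0.527 CPM for Slc7a1, was at -0.63 on chow (edgeR adjusted p = 0.39). It was at -0.77 on HFS (edgeR adjusted p = 0.25) and at -0.70 averaged over the diets (edgeR adjusted p = 0.093). Glul, the glutamine synthetase of pericentral hepatocytes, had 390, 183 and 243 CPM in Xbp1fl/fl chow libraries and 1800 and 2956 CPM in Xbp1LKO chow libraries. On HFS the levels were 418, 414 and 442 CPM against 2718, 2519 and 3269 CPM. Glul rose 8.74-fold on chow (log2 fold change 3.13, SE 0.30, edgeR adjusted p = 0.0013) and 6.67-fold on HFS (2.74, SE 0.28, edgeR adjusted p = 0.0014), and was called in 11 of 11 fits without 1 library on each diet. The lowest Xbp1LKO library, at 1800 CPM, was thus far above the highest control, at 442 CPM.

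Rhbg, an ammonia transporter of the plasma membrane, was at 0.946 to 2.05 CPM in the 6 Xbp1fl/fl libraries and at 12 to 26.6 CPM in the 5 Xbp1LKO libraries. It rose 14.8-fold on chow (log2 fold change 3.88, SE 0.38, edgeR adjusted p = 0.0013) and 8.77-fold on HFS (3.13, SE 0.34, edgeR adjusted p = 0.0016). Slc1a2, a glutamate transporter, was at 60.6 to 214 CPM in Xbp1fl/fl and 692 to 923 CPM in Xbp1LKO libraries. It rose 7.10-fold on chow (2.83, SE 0.31, edgeR adjusted p = 0.0016) and 3.78-fold on HFS (1.92, SE 0.29, edgeR adjusted p = 0.0046). For both, all 5 Xbp1LKO libraries were above the 6 controls, as for 3.19% of all genes.

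Slc1a4, a carrier of neutral amino acids, was at 1.99 to 5.40 CPM in Xbp1fl/fl and 6.74 to 19 CPM in Xbp1LKO libraries. It rose on chow (log2 fold change 1.77, edgeR adjusted p = 0.035) and on HFS (2.03, edgeR adjusted p = 0.014). Its chow call was lost without Xbp1fl/fl chow 2 or 3, Xbp1LKO chow 2, Xbp1fl/fl HFS 3, or Xbp1LKO HFS 2 or 3 (edgeR adjusted p from 0.050 to 0.39), and its HFS call without Xbp1fl/fl HFS 3 or Xbp1LKO HFS 2 (0.051 and 0.062). Slc7a1, a transporter of arginine, ornithine and lysine, had 6, 2 and 1 counts in Xbp1fl/fl chow libraries and 26 and 35 counts in Xbp1LKO chow libraries, and was called higher on chow (edgeR adjusted p = 0.018), though not without Xbp1fl/fl chow 2 or Xbp1LKO chow 2 (from 0.068 to 0.15). Averaged over the diets, Slc38a4, an amino acid transporter of the hepatocyte membrane, fell by 0.56 on the log2 scale (edgeR adjusted p = 0.042), a call lost in 8 of 11 fits without 1 library (from 0.053 to 0.19), that is, without any Xbp1fl/fl library or without Xbp1LKO chow 2 or HFS 2.

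Of 9 regulators of urea cycle transcription (Cebpa, Cebpb, Hnf4a, Nr3c1, Gcgr, Ppargc1a, Foxa2, Creb1 and Atf4), 0 were called by edgeR on either diet and 0 by DESeq2, with 2 at an unadjusted p under 0.05 on chow (19.3% of all genes) and 1 on HFS (17.5%). Cebpa, whose product binds promoters of several urea cycle genes, was at 0.01 (95% interval -0.30 to 0.33) on chow and 0.13 (95% interval -0.15 to 0.42) on HFS. Hnf4a, a main hepatocyte transcription factor, was at -0.08 (95% interval -0.39 to 0.23) and -0.09 (95% interval -0.37 to 0.19). Cebpb was at 0.63 (95% interval 0.07 to 1.19) on chow and -0.51 (95% interval -1.02 to -0.00) on HFS, neither past the threshold. Its interaction was -1.1 (95% interval -1.90 to -0.39, edgeR adjusted p = 0.68). In the interaction, 2 of the 9 regulators had an unadjusted p under 0.05 (6.13% of all genes), and edgeR called 0. The mRNAs of Sirt3 and Sirt5, deacylases that act on Otc and Cps1 proteins, were within 0.03 of 0 on both diets. In the diet comparisons, edgeR called 0 of the 48 genes in either genotype, 4 and 7 had an unadjusted p under 0.05 in Xbp1fl/fl and Xbp1LKO hepatocytes (8.95% and 12.7% of all genes), and DESeq2 called 0 and 2.

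**Figure D4:**
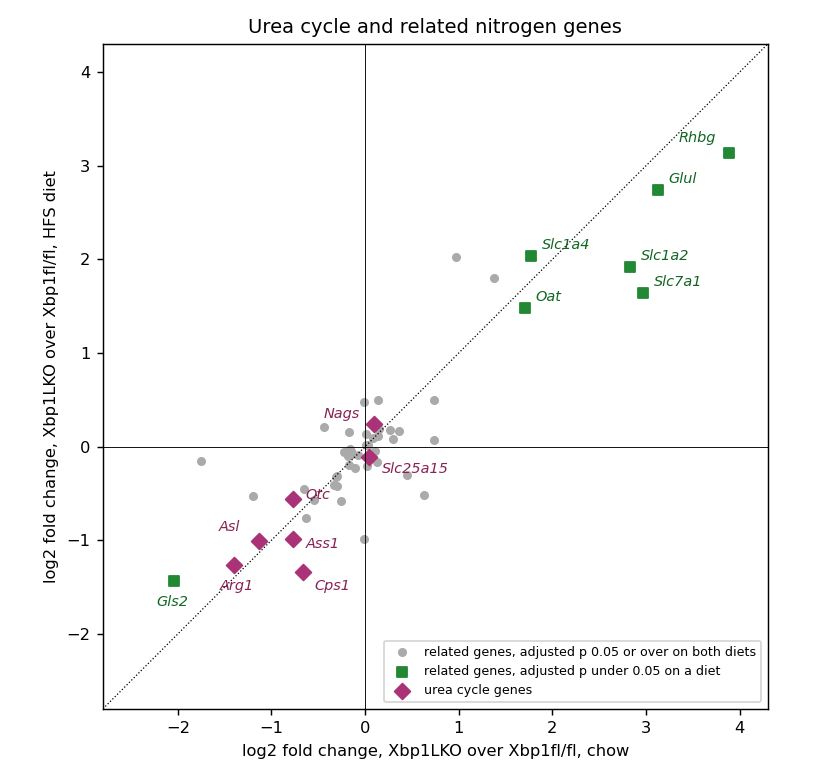
Log2 fold change of Xbp1LKO over Xbp1fl/fl on HFS (vertical) against that on chow (horizontal) for the 7 urea cycle genes (diamonds) and 48 related genes (squares where edgeR adjusted p was under 0.05 on a diet, grey points otherwise); the dotted line marks equal values. Glul, Rhbg, Slc1a2, Slc1a4, Slc7a1 and Oat lie at the upper right, up to 3.88 on chow, and Arg1, Asl, Ass1, Cps1 and Otc at the lower left with Gls2. The 2 axes rest on different libraries.

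Markers of the zones of the lobule moved with genotype beside these genes. By edgeR, 9 of 15 periportal markers were called lower in Xbp1LKO hepatocytes on chow (3.02% of all genes) and 5 on HFS (2.16%), none higher, and all 15 had a negative log2 fold change on both diets, with medians of -2.35 and -1.35. Of 16 pericentral markers, 9 were called higher on chow (1.73% of all genes) and 7 on HFS (1.92%), none lower, with medians of 0.93 and 0.66. On chow 14 were positive and 2 negative, and on HFS 11 and 5, where DESeq2 called 11 higher and 1 lower. Their summed level was 17236 to 19105 CPM in Xbp1fl/fl chow and 21455 and 27788 CPM in Xbp1LKO chow libraries. On HFS the sums overlapped, at 22942 to 27388 CPM in Xbp1fl/fl and 24952 to 27153 CPM in Xbp1LKO libraries. None of the 7 urea cycle genes is in these lists. Gls2 is in the periportal list and Glul, Oat, Slc1a2 and Rhbg are in the pericentral list. These genes were thus counted in both places, and the lists are only partly independent of the genes above. The summed periportal level was 11564 to 14989 CPM in Xbp1fl/fl chow, 5508 and 7927 CPM in Xbp1LKO chow, 10653 to 10966 CPM in Xbp1fl/fl HFS and 4131 to 8959 CPM in Xbp1LKO HFS libraries. Within each diet, the Xbp1LKO libraries had the same order in this sum as in Cps1. Without Xbp1LKO chow library 2, 0 periportal and 6 pericentral markers were called on chow, with all 15 periportal values still negative, and without Xbp1LKO HFS library 3, 1 periportal marker was called on HFS. Whether fewer periportal cells were recovered or the zonal genes differed within cells cannot be told apart in these libraries.

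The markers of other cells of the liver are given as values, and their part in the results was not tested. Of all genes, 19.3% had an unadjusted p under 0.05 on chow, 17.5% on HFS and 12.7% for the diet in Xbp1LKO hepatocytes. DESeq2 called 1115, 987 and 210 genes in all, in the same order. Of the 12 macrophage markers, 0 were called by edgeR or DESeq2 on either diet, with 0 at an unadjusted p under 0.05 on chow and 1 on HFS; all 12 had a negative log2 fold change on chow, where 1 control (library 1, summed level 93.7 CPM) stood above the other two (21.6 and 22.3 CPM), and all 12 a positive one on HFS. Of the 10 endothelial markers, edgeR called 0 on either diet. On chow 9 had an unadjusted p under 0.05 and DESeq2 called 7, and on HFS both counts were 0. Averaged over the diets, edgeR called 3 of the 10 lower (6.64% of all genes) and DESeq2 called 8. All 10 had an unadjusted p under 0.05 in that contrast (25.6% of all genes). All 10 were lower on both diets, with a median log2 fold change of -1.34 on chow and -0.38 on HFS. Their summed CPM were 31.2 and 39.4 in Xbp1LKO chow against 50.9 to 127 in Xbp1fl/fl chow libraries, and 81.0 to 133 in Xbp1LKO HFS against 99.5 to 166 in Xbp1fl/fl HFS libraries. With the diet in Xbp1LKO hepatocytes, all 10 endothelial markers were higher (median log2 fold change 1.55), of which edgeR called 0, DESeq2 9, and all 10 had an unadjusted p under 0.05. Of 8 stellate cell markers, 6 were tested and edgeR called 0 in each comparison. All 6 were lower in Xbp1LKO libraries on chow (median -1.24, 3 at an unadjusted p under 0.05, DESeq2 called 2), and 5 of 6 were higher on HFS (median 0.46, 1 at an unadjusted p under 0.05, DESeq2 called 0). With the diet in Xbp1LKO hepatocytes all 6 were higher (median 2.27, 4 at an unadjusted p under 0.05, DESeq2 called 3). The summed stellate level was 7.04 to 48.6 CPM over the 11 libraries. Of 12 hepatocyte markers, 3 were called lower on chow (3.02% of all genes) and 2 on HFS (2.16%), DESeq2 called 6 and 8, and 11 of 12 were negative on each diet. Their summed level was 149689 to 185281 CPM in Xbp1fl/fl chow, 55216 and 88693 CPM in Xbp1LKO chow, 130088 to 147560 CPM in Xbp1fl/fl HFS and 73065 to 101551 CPM in Xbp1LKO HFS libraries.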

How the data were processed

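RNA from Percoll-purified hepatocytes was sequenced as single-end reads on an Illumina platform, and each deposited table holds whole-number counts per Ensembl gene for 1 library, which the authors made from the reads. The study's methods name kallisto with tximport and DESeq2, whereas the submitters' processing notes name cutadapt 1.13, STAR, HTSeq 0.6.1p1 and mm10, so which of these made the counts is not settled, and fragments of overlapping genes may have been split differently. Identifiers were matched to GENCODE M21 (54165 of 54232). Genes with low counts were removed with filterByExpr (minimum 10), leaving 13303. Counts were scaled by TMM and tested with edgeR 4.0.16 (R 4.3.3), by the quasi-likelihood test in a model of 4 groups over 11 libraries, with Benjamini-Hochberg adjustment over all genes and a threshold of 0.05. The 2 genotype comparisons, the diet comparisons, the interaction and the averaged contrast share libraries. Alternatives were size factors by RLE, library totals, DESeq2 1.42.0, no filter, only the groups compared, a block for the replicate number and leaving out each library. The tests were checked on simulated data. CPM per kilobase used the longest coding transcript. Replicates of a group differed by more than sampling noise (chi-square per degree of freedom from 28.0). The model estimated the spread of a gene over all 11 libraries together. Each p-value, on chow or on HFS, thus rests on a blend of the spread between single mice and that between pools. The replicate numbers did not pair samples. The members, lists and named genes, the latter those of the related list past the threshold, were chosen with earlier results of these data known. One gene that the rule on likeness names is not reported here.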

Additional observations from a re-analysis of the deposited data

How the results depend on the processing

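The 5 enzymes kept a negative genotype effect on both diets under every alternative run, and the calls did not stay. On chow, DESeq2 called 2 members and 1115 genes in all, library totals 2 members, 17 related genes and 3000 genes, no filter on low counts 4 members, 12 related genes and 1507 genes, and the fit of only the groups compared 0 members, 4 related genes and 233 genes. On HFS, DESeq2 called 3 members, 8 related genes and 987 genes, library totals 2 members, 8 related genes and 1483 genes, and no filter 5 members, 12 related genes and 1438 genes. Library totals moved the share of calls that were higher from 36.4% to 89.5% on chow and from 47.2% to 86.9% on HFS, and turned Slc25a15 to 0.15 on HFS and 0.26 in the averaged contrast. For the diet in Xbp1fl/fl, DESeq2 called 175 genes and no filter 499 genes with 3 related. For the diet in Xbp1LKO, DESeq2 called 210 genes with 2 related, no filter 722 with 3 related, and the fit of only the groups compared 0. For the interaction, DESeq2 called 31 genes and no filter 269 with 4 related. The cause of these shifts was not tested.

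Leaving out 1 library at a time gave 0 to 3 members, 4 to 8 related genes and 69 to 762 genes on chow, and 0 to 3 members, 4 to 8 related genes and 184 to 662 genes on HFS. It gave 6 to 59 genes for the diet in Xbp1fl/fl, 0 to 36 in Xbp1LKO and 1 to 5 members in the averaged contrast. Slc25a15 ranged from -0.053 (without Xbp1LKO chow 1) to 0.14 on chow and from -0.11 to 0.016 (without Xbp1LKO HFS 3, with 0.015 without Xbp1LKO chow 2) averaged. For the diet in Xbp1LKO, Cps1 ranged from -1.02 to 0.17, Asl from -0.75 to 0.27 and Arg1 from -0.69 to 0.22, each positive without Xbp1LKO chow 1, and Otc from -0.31 (without Xbp1LKO chow 2) to 0.61, also negative without Xbp1LKO HFS 1 (-0.07) or HFS 2 (-0.02). For the interaction, Cps1 ranged from -1.15 to 0.043 and Ass1 from -0.64 to 0.38, both positive without Xbp1LKO chow 1, and Ass1 also without Xbp1fl/fl chow 3 (0.02) or Xbp1LKO HFS 3 (0.08). Otc ranged from -0.18 (without Xbp1LKO chow 2) to 0.74, Asl from -0.29 to 0.74 and Arg1 from -0.26 to 0.66, the latter 2 genes negative without Xbp1LKO chow 2 (-0.29 and -0.25) or Xbp1LKO HFS 1 (-0.23 and -0.26).

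Samples with the same replicate number correlated at -0.20 to 0.23 in their deviations from the group means (15 pairs, 4 over 0.1), so the numbers were taken as names. With the replicate block Arg1 was called on both diets (-1.54, edgeR adjusted p = 0.039, and -1.35, edgeR adjusted p = 0.036), and 19 genes were called for the diet in Xbp1LKO. A block by the number in the file names, where 1 Xbp1LKO chow library has another number, called 2 members on HFS and 53 genes for the diet in Xbp1LKO.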

Other observations

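The genes whose levels ran most like those of the urea cycle were sought by Pearson's r of log2 CPM over the 11 libraries, among 7489 genes with a mean of at least 10 CPM. Among those most like the mean of the 7 genes were Ebp (r = 0.95), which acts in sterol synthesis, Tecr (0.95), which completes fatty acid elongation, Cyth1 (0.94) and Gchfr (0.93), a regulator of tetrahydrobiopterin synthesis. The nearest gene to Cps1 was Ahcy (0.97), which hydrolyses S-adenosylhomocysteine, to Otc it was Etnppl (0.96), to Ass1 it was Tecr (0.97), and to both Asl (0.97) and Arg1 (0.98) it was Sfxn1, a mitochondrial serine carrier. Nags was nearest to Prmt7 (0.89) and Slc25a15 to Mast3 (0.91). The points share genotype, diet and the scaling of each library, and the genes were picked for their high r, so these values are a description.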
